A study of Eucalyptus urophylla with 24 samples.

Results

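Mature leaves of diploid *Eucalyptus urophylla* were compared with young leaves of the same diploid over all 26033 genes of the transcript table. The comparison takes 6 of the 24 libraries of the series, 3 of mature leaves and 3 of young leaves, which the labels call juvenile leaves. *E. urophylla* is a tropical timber tree, and the study set triploid plants, made by sexual polyploidization, against diploid ones over stages of leaf age to relate chlorophyll to transcription. Both groups described here are diploid, carry no treatment or transgene, and differ by label only in the stage of the leaf, mature or juvenile. The study's methods describe young leaves as those at the shoot tips and mature leaves as fully expanded. The study took its leaves from clones, and it states how many only for its chlorophyll measurement. The age of the trees, the number of clones behind the RNA and whether the 3 libraries of a stage come from separate trees are not stated, and p-values therefore cover only how far these libraries spread, which may be technical.

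A young leaf still divides and expands, builds its cuticle and veins, and imports sugar. A mature leaf has ceased to grow, fixes carbon at its full capacity, exports sugar through the phloem, and lives on a protein stock that it later breaks down. In most plants the cell cycle stops before expansion does, and the chloroplasts fill with the antenna proteins, photosystems and Calvin cycle enzymes while the leaf passes from importing to exporting sugar.

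The 6 libraries held 59197328 to 64400745 counts each (median 62731728). The RNA of mature leaves was the more uneven, since the 100 most abundant transcripts held 41.1, 40.2 and 41.0% of all FPKM (fragments scaled to transcript length and library size) in mature leaves, against 25.7, 24.4 and 22.5% in young leaves. This matters for scaling. With edgeR's TMM factors, which set most genes level between libraries, the median gene changed by −0.09 on the log2 scale, and with library totals alone by −0.62. All levels below are therefore scaled FPKM, the deposited FPKM divided by the TMM factor of the library, so that levels and fold changes stand on 1 scale, and a change is one relative to most genes. Young libraries 1 and 3 stood apart from their group, where the log2 deviations from the stage mean had SDs of 0.316 and 0.30, against 0.180 in young library 2 and 0.201, 0.205 and 0.238 in mature libraries 1, 2 and 3. Young library 2 lay between them in 37 of 49 gene lists.

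The young libraries differed from each other with transcript length. Over 16839 genes, library 1 exceeded library 3 by a median log2 of 0.55 in the shortest of 5 equal groups of transcripts and lay below it, at −0.59, in the longest group (Spearman correlation with length −0.71, across genes, which are not independent replicates). The mature libraries differed less, by −0.20 to 0.05 in the shortest group and −0.01 to 0.17 in the longest group. The change between the stages followed length too, with a median of 0.34 in the shortest group and −0.48 in the longest group. Against young library 1 alone the trend was nearly flat for mature library 1, at 0.07 and −0.05, but not for mature library 3, at 0.22 and −0.23. Against young library 3 it was steep, at 0.57 and −0.70 for mature library 1. A fit that takes the length trend out of each library was chosen after seeing the data. It is given below where it changes the call of a named gene, and for some of the lists that it moves. Whether the trend comes from the leaves or from the RNA was not tested.

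**Figure D1:**
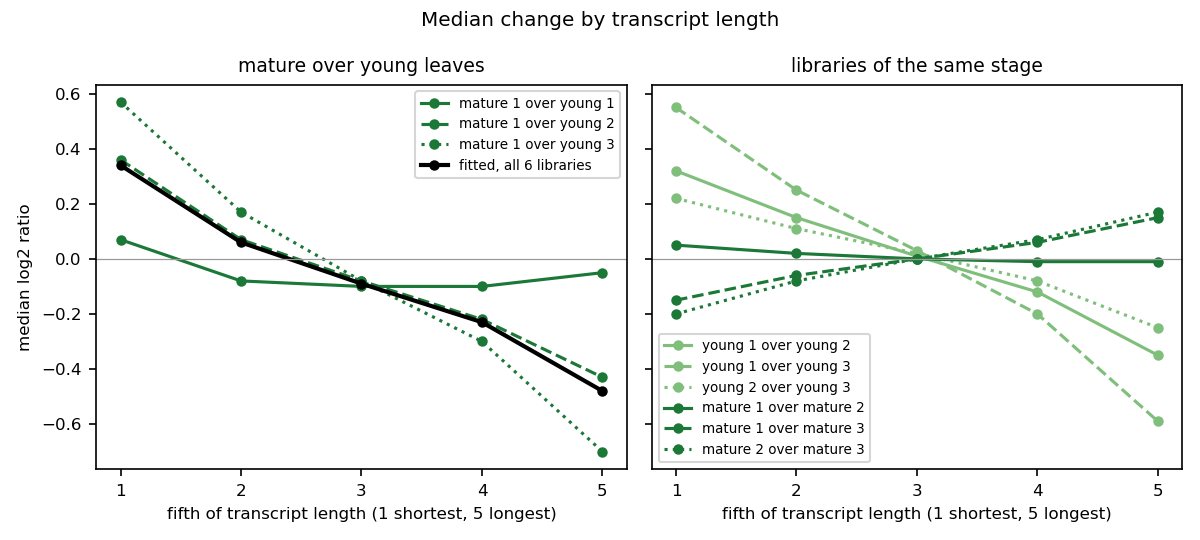
Median log2 ratio of 16839 genes (vertical axis) in 5 equal groups by transcript length (horizontal axis), on the left for mature library 1 over each young library and for the fit over all 6, on the right for libraries of the same stage. The fitted change goes down with length, from 0.34 in the shortest group to −0.48 in the longest, and young library 1 over young library 3 runs from 0.55 to −0.59.

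More than every second gene tested differed between the stages. Of 20514 genes tested with edgeR's quasi-likelihood test, 5958 were called higher and 6665 lower in mature leaves at an adjusted p under 0.05, which is 29.0% and 32.5% of the genes tested. At least 2-fold changes made up 4042 and 4191 of these calls, or 19.7% and 20.4% of the genes tested. The counts of calls in each list below are to be read beside the 29.0% and 32.5%. With library totals in place of TMM factors the calls became 3917 higher and 10399 lower, so 27.4% of them were higher against 47.2% with TMM, and 481 of the 12623 calls turned in direction. A fit without young libraries 1 and 3 keeps only 1 young library, so its spread comes from mature leaves alone and its calls are not given here. All 3 mature libraries lay above all 3 young libraries in 32.2% of the genes tested, and below them in 36.9%. In bulk leaves fewer cells of a type and less RNA per cell cannot be told apart.

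Among the 8 largest rises were an enzyme of the raffinose family of sugars and relatives of the flowering signal. *Galactinol synthase 1* (Eucgr.H02584, chromosome 8, 34784608 to 34787416), which makes the first intermediate of raffinose, stood at 8177, 7752 and 8808 scaled FPKM in mature leaves, against 11.3, 4.79 and 8.28 in young leaves. The groups were far apart, and the log2 fold change was 10.00 ± 0.41 (SE, adjusted p = 1.0e-06). A second model of that name, Eucgr.H02585, averaged 604 ± 23.9 scaled FPKM in mature leaves and 0.545 ± 0.335 in young leaves (SD, n = 3 each), but its positions, 34784767 to 34788240, overlap those of Eucgr.H02584, and whether their reads were told apart is not known. *MOTHER of FT and TFL1* (Eucgr.B00867, chromosome 2, 9193439 to 9196791), a relative of the florigen FT known from seed dormancy in Arabidopsis, was at 286, 294 and 397 scaled FPKM in mature leaves, against 0.106, 0.160 and 0 in young leaves. *HEADING DATE 3A* (Eucgr.B01458, chromosome 2, 24935723 to 24937182), named after the florigen of rice, was at 137, 134 and 149 scaled FPKM in mature leaves, against 0, 0 and 0.333 in young leaves. Both were thus close to absent in young leaves, and their log2 fold changes were 11.73 ± 0.52 and 10.20 ± 0.72 (SE, adjusted p = 1.4e-06 and 1.2e-05).

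The other large rises had other roles. *RADIALIS-like 3* (Eucgr.F01887), a small MYB-like factor, averaged 47.4 ± 3.18 scaled FPKM in mature leaves and 0.0425 ± 0.0735 in young leaves. *Mitoferrin* (Eucgr.K02960), an iron carrier of mitochondria, averaged 118 ± 16.5 and 0.210 ± 0.0614 scaled FPKM in mature and in young leaves (SD, n = 3 each). A UDP-glycosyltransferase 86A1 (Eucgr.A01691) with 13.1, 14.9 and 12.1 scaled FPKM and the vacuolar anion channel *aluminum-activated malate transporter 9* (Eucgr.D01793) with 10.6, 12 and 10.4 scaled FPKM in mature leaves had no count in any young library. Against a floor of 3 counts over the 3 young libraries, they were at least 2734-fold and at least 1741-fold higher in mature leaves.

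The 8 largest falls were genes without a single count in the 3 mature libraries. *Protodermal factor 1* (Eucgr.K01198), a cell wall protein of the young epidermis, was at 0 in mature leaves, against 28.7, 29.8 and 31.7 scaled FPKM in young leaves, which with a floor of 3 counts over the mature libraries makes it at least 2053-fold lower. The replication helicase subunit *MCM6* (Eucgr.D00002) had no count in mature leaves, against 9.65, 12 and 14.8 scaled FPKM in young leaves, and was at least 1984-fold lower. A stress-response A/B barrel protein HS1 (Eucgr.B02219), at 443, 273 and 184 scaled FPKM in young leaves, was at least 5676-fold lower, and a defensin-like protein 157 (Eucgr.K01858), at 155, 109 and 108, at least 3882-fold lower. The others were *GLOX1* (Eucgr.C03801), an aldehyde oxidase, *IQ-DOMAIN 14* (Eucgr.C03722), *serine carboxypeptidase-like 13* (Eucgr.G01201) and an acyl-CoA--sterol O-acyltransferase 1 (Eucgr.L00540), with means of 25.2, 17.2, 17.8 and 18.5 scaled FPKM in young leaves and bounds of 2720-fold, 1468-fold, 1572-fold and 1130-fold lower in mature leaves.

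**Figure D2:**
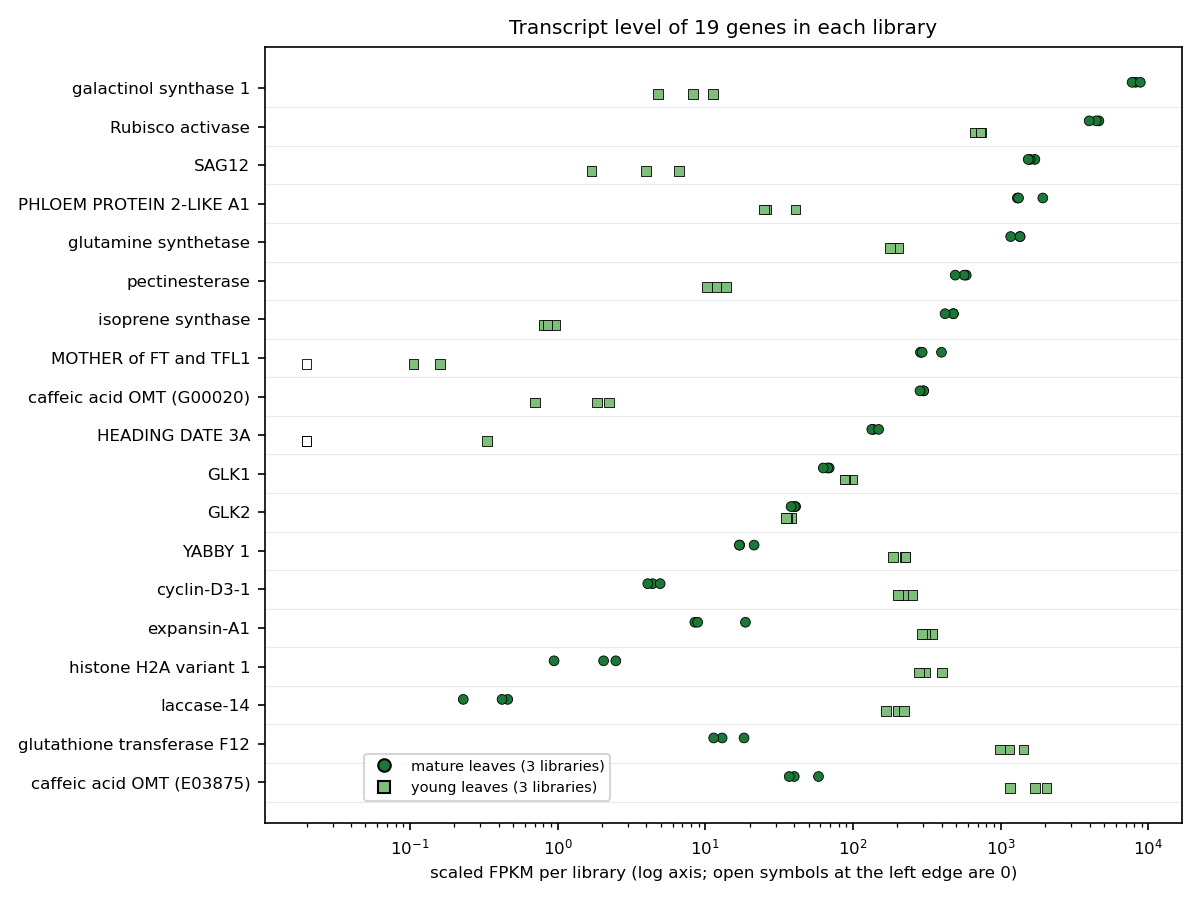
Scaled FPKM (horizontal log axis) of 19 genes in each of the 3 mature leaf libraries (circles) and 3 young leaf libraries (squares), with open symbols at the left edge for 0. The levels of galactinol synthase 1 are 7752 to 8808 in mature leaves and 4.79 to 11.3 in young leaves, and those of laccase-14 are 0.230 to 0.460 and 167 to 222, while the mature and young levels of GLK1 and of GLK2 lie near each other.

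Most genes of photosynthesis rose, and those of photorespiration were more divided. Of 16 light-harvesting proteins, which bind the antenna chlorophyll, 14 were called higher and 2 lower, beside 29.0% and 32.5% over all genes tested, with a median log2 fold change of 1.14. Of 38 subunits of the photosystems, the electron transport chain and the chloroplast ATP synthase, 30 were called higher and 0 lower by edgeR (median 1.23). An unadjusted p under 0.05 and DESeq2 also gave 0 lower, limma on log2(FPKM + 1), which takes FPKM without the scaling, gave 5, and library totals gave 6. Of 23 Calvin cycle genes 17 were called higher and 4 lower (median 1.33), and of 23 genes of photorespiration 12 and 6 (median 0.73). With library totals the medians fell to 0.61, 0.71, 0.79 and 0.20 for these 4 lists, in the order given, and kept their sign. For photorespiration library totals gave 10 higher and 9 lower. With the length trend taken out 11 of its genes were called higher and 7 lower (median 0.39). The photosystem list has short transcripts, 0.693 times the median length, and its median went to 0.96 with the length trend taken out. That of the light-harvesting list went to 0.92.

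The summed levels show the size of this part of the transcriptome. The photosystem list summed to 54427, 49303 and 50792 scaled FPKM in mature leaves, against 21994, 17590 and 14956 in young leaves, 2.83 times as much. The Calvin cycle list summed to 16519, 15708 and 14545, against 4561, 4813 and 4614 scaled FPKM (3.34 times), and photorespiration to 6507, 6516 and 6803, against 2512, 2664 and 2447 (2.60 times). The antenna list summed to 27176, 25177 and 25583, against 14213, 13010 and 11102 (2.03 times). No young library reached a mature one in any of these sums.

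*Rubisco activase* (Eucgr.J02030), which keeps the carbon-fixing enzyme Rubisco active, had the highest level of the Calvin cycle list, at 4617, 4428 and 3970 scaled FPKM in mature leaves, against 667, 732 and 730 in young leaves (log2 fold change 2.62 ± 0.13, adjusted p = 1.9e-06). All mature libraries lay far above all young ones. A *Rubisco small chain 3B* copy (Eucgr.B03013) went the other way at a low level, with 0, 0.0797 and 0 scaled FPKM in mature leaves, against 7.46, 4.61 and 3.82 in young leaves. The chloroplast *ATP synthase gamma chain* (Eucgr.E04053) averaged 1334 ± 61.7 and 287 ± 16.3 scaled FPKM in mature and young leaves (log2 fold change 2.23 ± 0.11), and the *photosystem II 10 kDa polypeptide* (Eucgr.F03186) 4915 ± 1071 and 1241 ± 431 (2.0 ± 0.27). Within the antenna, *CP29.3* (Eucgr.G03060), a minor antenna protein of photosystem II, rose most, at 2536 ± 104 and 704 ± 97.3 scaled FPKM (1.86 ± 0.14). The most abundant antenna gene, *chlorophyll a-b binding protein 36* (Eucgr.A01047), rose by 0.61 ± 0.13 (3977 ± 183 and 2626 ± 306 scaled FPKM), a call that was lost with library totals (0.09) and with limma on FPKM (0.08). An *LHCII type 1-like* copy (Eucgr.D00320) fell by 0.79, to 93.9 ± 9.81 in mature leaves against 163 ± 23 in young leaves. The *glycine cleavage H protein* (Eucgr.D02179), which handles photorespiratory glycine, rose by 1.52 ± 0.16, at 1442 ± 192 and 507 ± 72.3 scaled FPKM in mature and young leaves.

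**Figure D3:**
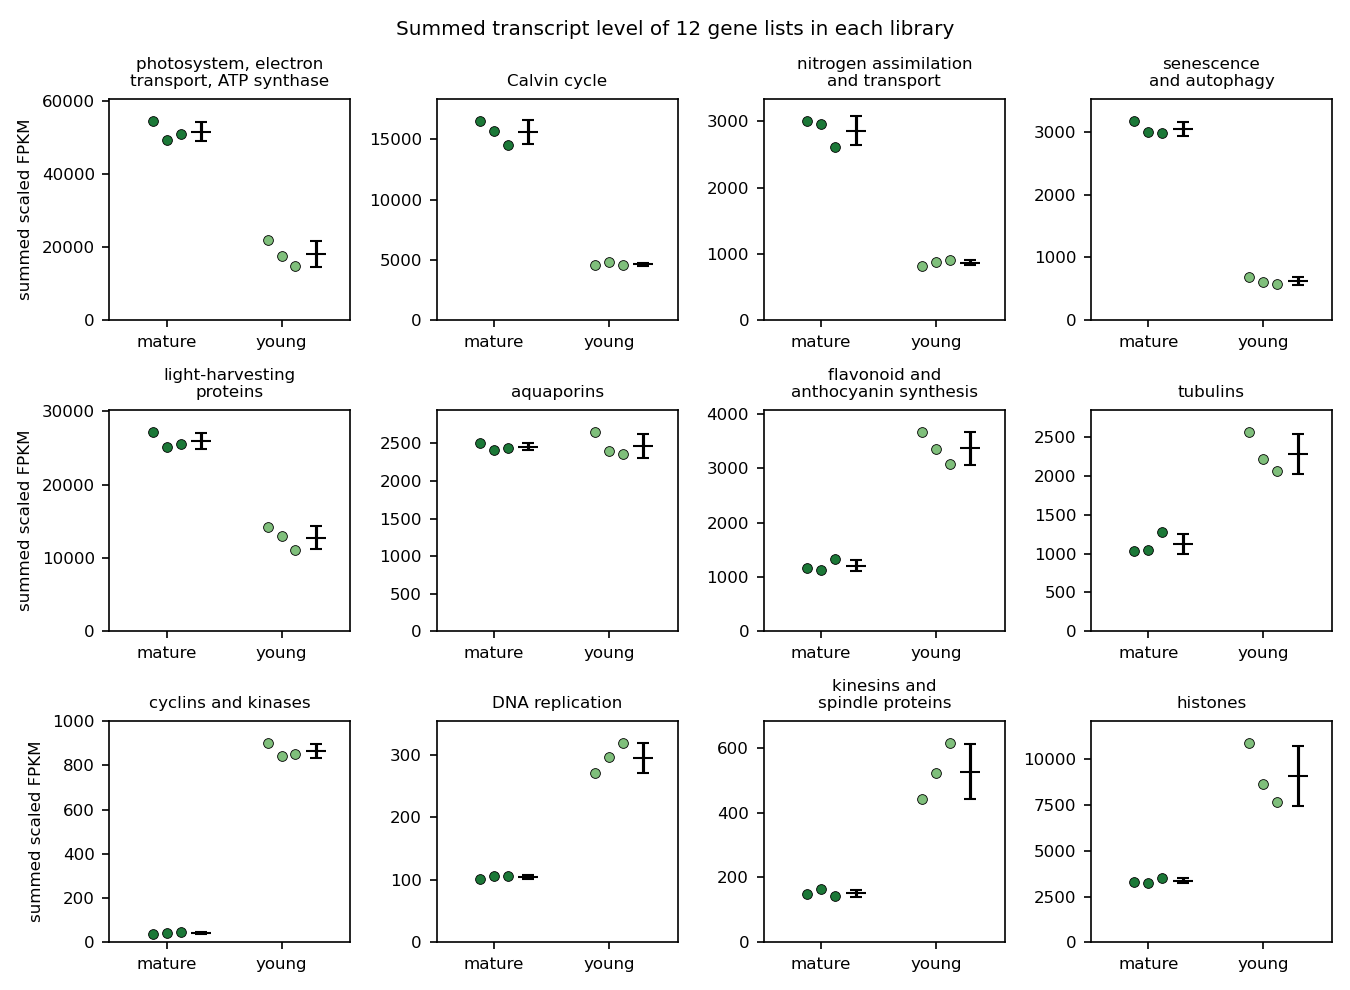
Summed scaled FPKM (vertical axes, from 0) of 12 gene lists in each of the 3 mature (left, dark) and 3 young (right, light) leaf libraries, with the mean and SD beside the points. Sums of photosystem, Calvin cycle, nitrogen, senescence and antenna genes are higher in every mature library, those of flavonoid, tubulin, cyclin, replication, spindle and histone genes are lower in every mature library, and the aquaporin sums overlap.

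Genes that make chlorophyll changed in both directions. Of 18 genes of the pathway, 7 were called higher and 6 lower, beside 29.0% and 32.5% over all genes tested. The median log2 fold change was −0.06 and became 0.08 with the length trend taken out. With library totals 3 were called higher and 10 lower (median −0.58). The early steps that build the porphyrin ring held the largest fall, *porphobilinogen deaminase* (Eucgr.C00142), at 12.8, 10.6 and 10.9 scaled FPKM in mature leaves, against 31.4, 33.8 and 29.7 in young leaves (−1.46 ± 0.12, adjusted p = 2.7e-05). The later steps with magnesium held the largest rise, a *ChlI-like magnesium chelatase subunit* (Eucgr.D00547) with 10.9 ± 0.872 and 4.43 ± 0.786 scaled FPKM in mature and young leaves (1.31 ± 0.18). They also held the most abundant gene, the *magnesium-protoporphyrin monomethyl ester cyclase* (Eucgr.A02177) with 770, 752 and 503 scaled FPKM, against 364, 379 and 420 (0.81 ± 0.17), a call that was lost with library totals and with limma on FPKM. Chlorophyll breakdown genes were called higher in 6 of 10 cases and lower in 2 (median 0.57), against 3 and 4 with library totals (median 0.04). *Pheophytinase* (Eucgr.B03607), which cuts the phytol tail off the magnesium-free pigment, stood at 230, 232 and 220 scaled FPKM in mature leaves, against 53, 48.4 and 44.2 in young leaves (2.24 ± 0.11, adjusted p = 2.3e-06). *Chlorophyllase-2* (Eucgr.B01022), which cuts the same tail off intact chlorophyll, fell by 5.99, to 0.507, 0.854 and 0.483 scaled FPKM against 45.6, 39.9 and 34.6. Early light-induced proteins, which bind pigment under light stress, were called lower in 3 of 4 cases and higher in 0 by edgeR, also at an unadjusted p under 0.05 and by DESeq2. Limma on log2(FPKM + 1) called 3 of 3 lower and on log2(FPKM + 0.1) 2 of 3, with 0 higher in both. The most abundant of them (Eucgr.B01007) averaged 262 ± 5.52 and 475 ± 74.3 scaled FPKM in mature and young leaves.

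GLK1 and GLK2 are activators of chloroplast genes and were named for the study's interest in them. *GLK1* (Eucgr.A01857, chromosome 1, 33608330 to 33612765) was at 69.0, 67.3 and 62.9 scaled FPKM in mature leaves, against 98.2, 88.8 and 87.5 in young leaves. It did not overlap between the stages and was called lower, at −0.45 ± 0.10 (adjusted p = 0.0052). *GLK2* (Eucgr.K01056, chromosome 11, 13546489 to 13549812) was at 40.9, 40.1 and 38.1 scaled FPKM, against 38.2, 35.9 and 35.2. Its groups just overlapped and it was not called (0.14 ± 0.09, adjusted p = 0.25), but with library totals its change was −0.39 and called.

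The machinery of protein synthesis changed modestly. Of 33 plastid ribosomal proteins, which serve the chloroplast's own translation, 16 were called higher and 6 lower, with a median of 0.43 that turned to −0.09 with library totals (10 higher and 13 lower) and was 0.15 with the length trend taken out (12 and 7). *S31* (Eucgr.K02991) averaged 402 ± 27 and 212 ± 50.5 scaled FPKM in mature and young leaves (0.93 ± 0.18), and *L28* (Eucgr.H02995) 333 ± 9.99 and 150 ± 41.5 (1.16 ± 0.19), while *L3-2* (Eucgr.H04124) fell by 1.20, to 4.55 ± 0.575 against 10.5 ± 0.632. Of 109 cytosolic ribosomal proteins, which translate the nuclear messages, 29 were called lower and 0 higher by edgeR (1 higher at an unadjusted p under 0.05, 1 by DESeq2, 0 by limma), with a median of −0.26. With library totals 87 were called lower (median −0.77), and with limma on log2(FPKM + 1) 96. The list summed to 17633, 16859 and 20355 scaled FPKM in mature leaves, against 26107, 20389 and 17564 in young leaves, so the groups overlapped. Its transcripts are short, 0.573 times the median length, and with the length trend taken out 82 were called lower (median −0.54), whereas without young library 1 the calls were 14 higher and 26 lower (median −0.06). Without young library 2, or without mature library 1 or 2, 19 were called lower, and without young library 3, 45. The most abundant member, *L27a-3* (Eucgr.B03289), was at 580, 531 and 639 scaled FPKM, against 844, 636 and 508, and was not called (−0.17, or −0.58 and called lower with the length trend taken out).

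Cell cycle genes were at low levels in mature leaves. Of 22 cyclins, cyclin-dependent kinases and their cofactors, which drive division, 19 were called lower and 1 higher, with a median log2 fold change of −5.33. They summed to 39.6, 43.0 and 46.1 scaled FPKM in mature leaves, against 901, 841 and 852 in young leaves, or 0.0496 times as much. *Cyclin-D3-1* (Eucgr.G01371), a D-type cyclin that lets cells enter division, was at 4.40, 4.08 and 4.95 scaled FPKM, against 252, 219 and 202 (−5.63 ± 0.16, adjusted p = 4.0e-07). *Cyclin-B1-3* (Eucgr.A00004), a mitotic cyclin, had no count in mature leaves and 3.28, 3.97 and 3.72 scaled FPKM in young leaves, at least 263-fold lower in mature leaves. The 1 rise was a *cyclin-D3-3* copy (Eucgr.E04224) with 2.15, 2.15 and 2.16 scaled FPKM, against 0.822, 0.607 and 0.685 (1.61 ± 0.27). Of 7 inhibitors of these kinases 3 were called higher and 1 lower (median 0.20, or −0.33 with library totals). An *inhibitor 6-like* gene (Eucgr.G01462) rose by 2.96 ± 0.23, at 10.4 ± 1.80 and 1.33 ± 0.167 scaled FPKM in mature and young leaves. *SMR3* (Eucgr.G02732) fell by 3.16 (SE 0.96, adjusted p = 0.022), a call that was lost without young library 1, without young library 2 and without mature library 2. The most abundant, *inhibitor 1* (Eucgr.H02008), at 56 ± 2.67 and 53.7 ± 5.47 scaled FPKM, was not called.

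Replication, chromatin and spindle genes were mostly called lower as well. By summed level they fell less than the cyclins, to 0.355 times as much in replication genes and 0.288 times in spindle genes, against 0.0496 times. Of 26 replication genes 22 were called lower and 1 higher (median −5.13), of 48 kinesins and spindle proteins 40 and 4 (median −2.58), and of 20 histones 16 and 2 (median −1.54). Of the histones, 3 were called higher without young library 1, and 1 without young library 2, young library 3, mature library 1 or mature library 3. With the length trend taken out 1 histone was called higher, and the median was −1.96. Only 2 spindle genes were called higher without young library 2 or without mature library 2. The spindle list has long transcripts, 1.79 times the median length, and with the length trend taken out 38 of its genes were called lower (median −2.10). *PCNA* (Eucgr.J01951), the sliding clamp of DNA polymerase, had the highest level among replication genes and was at 13.4, 13.5 and 14.2 scaled FPKM in mature leaves, against 58.6, 51.8 and 48.1 in young leaves (−1.93 ± 0.12). The replication gene that rose was a *ribonucleotide reductase small chain A* (Eucgr.B01150), which makes deoxynucleotides, at 17.9 ± 0.877 and 5.39 ± 0.833 scaled FPKM (1.74 ± 0.15). The mitotic motor *KIN-5C* (Eucgr.K02024) had no count in mature leaves, against 3.97, 5.98 and 8.19 scaled FPKM in young leaves, at least 1179-fold lower. *MAP65-1* (Eucgr.F00650), a microtubule bundler of the dividing cell, averaged 1.33 ± 0.133 and 43.2 ± 7.55 scaled FPKM in mature and young leaves, whereas *MAP65-8* (Eucgr.B03489) rose by 2.67 ± 0.15, at 11.4 ± 1.47 and 1.81 ± 0.173.

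The fall in histones, too, was smaller than in cyclins. Histones summed to 3313, 3261 and 3534 scaled FPKM in mature leaves, against 10890, 8656 and 7690 in young leaves, 0.371 times as much. The most abundant, a *histone H2A* (Eucgr.K03160), was at 255, 246 and 266 scaled FPKM, against 1758, 1438 and 1255 (−2.53 ± 0.15, adjusted p = 5.0e-06). Another, *H2A variant 1* (Eucgr.K03318), was at 0.947, 2.05 and 2.48 scaled FPKM, against 398, 308 and 279 (−7.47 ± 0.37). *Histone H3.v1* (Eucgr.F01063) rose by 1.22 ± 0.11, at 101 ± 5.36 and 43.9 ± 3.63 scaled FPKM in mature and young leaves. Of 11 tubulins, the microtubule subunits, 9 were called lower and 1 higher (median −1.18), with the most abundant alpha chain (Eucgr.G01186) at 326, 334 and 431 scaled FPKM in mature leaves, against 1209, 951 and 850 in young leaves. *Tubulin beta-1* (Eucgr.D01847) was the one called higher (0.72 ± 0.13), a call lost with library totals and with limma on FPKM.

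Genes of the growing cell wall split by copy. Expansins, which loosen walls, were called higher in 7 of 19 cases and lower in 9 (median −0.64), yet their sum was 0.191 times as much in mature leaves. *Expansin-A1* (Eucgr.G02490, chromosome 7, 45742901 to 45744628) had the highest level, at 8.50, 8.88 and 18.7 scaled FPKM in mature leaves, against 343, 309 and 293 in young leaves (−4.70 ± 0.34, adjusted p = 1.3e-05). *Expansin-B3* (Eucgr.A01806) fell by 5.76, to 1.73 ± 1.53 against 93.9 ± 7.08 scaled FPKM, and *expansin-B2* (Eucgr.E01620) rose by 6.91 ± 0.90 at a low level, 2.42 ± 0.538 and 0.0174 ± 0.0302. Xyloglucan endotransglucosylases, which cut and rejoin the hemicellulose tethers, gave 8 higher and 11 lower of 24, and their sum was 2.38 times as high in mature leaves. *XTH6* (Eucgr.I00659) had more than all other members together in mature leaves, with 687, 611 and 543 scaled FPKM in mature leaves, against 31.9, 36.1 and 33.4 in young leaves (4.19 ± 0.14). *XTH30* (Eucgr.E00225) averaged 122 ± 10.5 and 2.29 ± 0.351 scaled FPKM, and *XTH23* (Eucgr.C00184) 0.0390 ± 0.0675 and 5.0 ± 0.527, in mature and young leaves.

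Cellulose and pectin genes showed the same division between copies. Of 28 cellulose synthases and their relatives 10 were called higher and 15 lower (median −0.94, or −0.52 with the length trend taken out). *CesA4* (Eucgr.E00821), a secondary wall synthase, was at 26.2, 24.3 and 21.3 scaled FPKM in mature leaves, against 43.0, 43.8 and 68.0 in young leaves (−1.10 ± 0.19). *CslD3* (Eucgr.D02228), a synthase of tip-growing cells, fell by 6.68, to 0.166 ± 0.0711 against 17.4 ± 5.13 scaled FPKM, and *CslG2* (Eucgr.H00189) rose by 5.79 ± 0.36, at 47.8 ± 2.61 and 0.868 ± 0.446. Pectin enzymes were called higher in 11 of 43 cases and lower in 24 (median −0.74), yet their sum was 1.43 times as high in mature leaves. A *pectinesterase* (Eucgr.C00760), which removes methyl groups from pectin, held the highest level at 584, 565 and 492 scaled FPKM in mature leaves, against 10.3, 11.9 and 13.8 in young leaves (5.52 ± 0.17, adjusted p = 4.8e-07). *Pectinesterase 68* (Eucgr.E00425) was its reverse, with 0, 0 and 0.0506 scaled FPKM, against 33.6, 44.9 and 61.4.

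Genes of the leaf surface were more often lower. Of 47 wax and cutin genes 11 were called higher and 25 lower (median −0.70). *CYP77A2* (Eucgr.D01302), a cutin-type hydroxylase, had no count in mature leaves and 2.34, 2.68 and 4.93 scaled FPKM in young leaves, at least 317-fold lower in mature leaves. *ECERIFERUM 1* (Eucgr.F00423), which makes the alkanes of wax, rose by 6.52 ± 0.70, at 10.5, 12.6 and 10.7 scaled FPKM, against 0, 0.261 and 0.0910. The most abundant gene of the list, the cutin acyltransferase *GPAT8* (Eucgr.E00121), was at 380 ± 30.7 and 315 ± 38.8 scaled FPKM in mature and young leaves and was not called (0.28 ± 0.13, −0.25 with library totals, and 0.37 and called higher with the length trend taken out). Lipid-transfer proteins, thought to carry wax monomers through the wall, were called higher in 6 of 19 cases and lower in 9 (median −0.42). With the length trend taken out 6 were called higher and 11 lower (median −0.79). *Lipid-transfer protein 1* (Eucgr.K01283) was the most abundant, at 4373, 4024 and 4186 scaled FPKM, against 7056, 5300 and 4631. Its groups did not overlap, but it was not called (−0.42 ± 0.17, adjusted p = 0.061), while with the length trend taken out it was (−0.79, adjusted p = 0.00014). *Lipid-transfer protein 8* (Eucgr.H04731) rose by 3.48 ± 0.22, at 33.2 ± 3.15 and 2.99 ± 0.823 scaled FPKM, and a protein of the same family (Eucgr.B01055) had no count in mature leaves and a mean of 2.89 in young leaves, at least 116-fold lower.

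Flavonoid genes were divided, and the abundant ones fell. Of 54 genes of flavonoid and anthocyanin synthesis 21 were called higher and 26 lower (median −0.61), and they summed to 1173, 1132 and 1329 scaled FPKM in mature leaves, against 3669, 3363 and 3072 in young leaves, 0.360 times as much. *Flavonol synthase* (Eucgr.L00738) was at 75.4, 74.4 and 78.0 scaled FPKM, against 799, 748 and 669 (−3.27 ± 0.12, adjusted p = 7.0e-07). *Glutathione transferase F12* (Eucgr.F02915), whose Arabidopsis namesake takes anthocyanins to the vacuole, fell by 6.37, to 13, 11.4 and 18.3 scaled FPKM against 1426, 1145 and 993. A pair of copies annotated as *anthocyanidin 3-O-glucosyltransferase 5*, near each other on chromosome 8, changed in opposite directions. Eucgr.H01242 (18922150 to 18924304) was at 0, 0.0415 and 0 scaled FPKM in mature leaves, against 10.2, 9.92 and 11.8 in young leaves. Eucgr.H01247 (18865005 to 18867134) was at 41.0, 37.8 and 34.3, against 0.327, 0.299 and 0.496 (6.65 ± 0.22, adjusted p = 5.7e-07).

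Monolignol genes, which make the lignin precursors, and laccases showed such an exchange as well. Of 91 genes 31 were called higher and 36 lower, beside 29.0% and 32.5% over all genes tested. Their median of 0.10 became −0.42 with library totals and changed sign without mature library 1 or 3. *Caffeic acid 3-O-methyltransferase* Eucgr.E03875 (chromosome 5, 72757371 to 72759478) fell to 58.4, 40 and 37 scaled FPKM in mature leaves, against 1716, 2044 and 1154 in young leaves (−5.17 ± 0.29, adjusted p = 4.1e-06). A gene of the same name on chromosome 7, Eucgr.G00020 (191012 to 193443), rose to 300, 301 and 284 scaled FPKM, against 1.84, 0.703 and 2.24 (7.53 ± 0.43, adjusted p = 4.3e-06). *Laccase-14* (Eucgr.E04218) was at 0.230, 0.460 and 0.421 scaled FPKM in mature leaves, against 167, 200 and 222 in young leaves, and *laccase-4* (Eucgr.G03028), a lignin laccase of xylem, at 35.4, 37.6 and 37.1, against 0.595, 0.319 and 0. How the counting dealt with reads that fit several copies is not stated, so single copies of these families are uncertain.

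Terpenes are the oils of the eucalypt leaf, and their synthases were mostly lower. Of 22 terpene synthases 12 were called lower and 5 higher (median −4.36). Most carry the name of *germacrene D synthase*, and the copy with the largest fall (Eucgr.J01451) had no count in mature leaves and 7.81, 12.2 and 11.7 scaled FPKM in young leaves, at least 1057-fold lower. The largest rise was in a gene of another product. *Isoprene synthase* (Eucgr.K00881, chromosome 11, 11123517 to 11127604), which makes the volatile isoprene in chloroplasts, was at 478, 478 and 420 scaled FPKM in mature leaves, against 0.956, 0.802 and 0.855 in young leaves (9.04 ± 0.16, adjusted p = 3.0e-07). It made the sum of the list 1.54 times as high in mature leaves, since the other 28 genes sum to little there. Another gene annotated as isoprene synthase, Eucgr.K00877, chosen after its values were seen, averaged 0.682 and 23.3 scaled FPKM in mature and young leaves (−5.07). The plastid pathway that supplies terpenes and carotenoids gave 14 higher and 11 lower of 30 (median 0.15, −0.38 with library totals, and of changed sign with the replicate number as a block or without mature library 2). In it the *cyclodiphosphate synthase* of the methylerythritol pathway (Eucgr.E00780) rose by 2.20 ± 0.16, at 210, 192 and 199 scaled FPKM against 44.6, 52.0 and 35.1. A *deoxyxylulose phosphate synthase 2* (Eucgr.I00566) fell by 4.69, to 3.99, 2.06 and 1.89 against 56.1, 93.9 and 56.1, and the last enzyme, *HDR* (Eucgr.I01241), averaged 227 ± 25.7 and 145 ± 27.4 (0.66 ± 0.16).

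**Figure D4:**
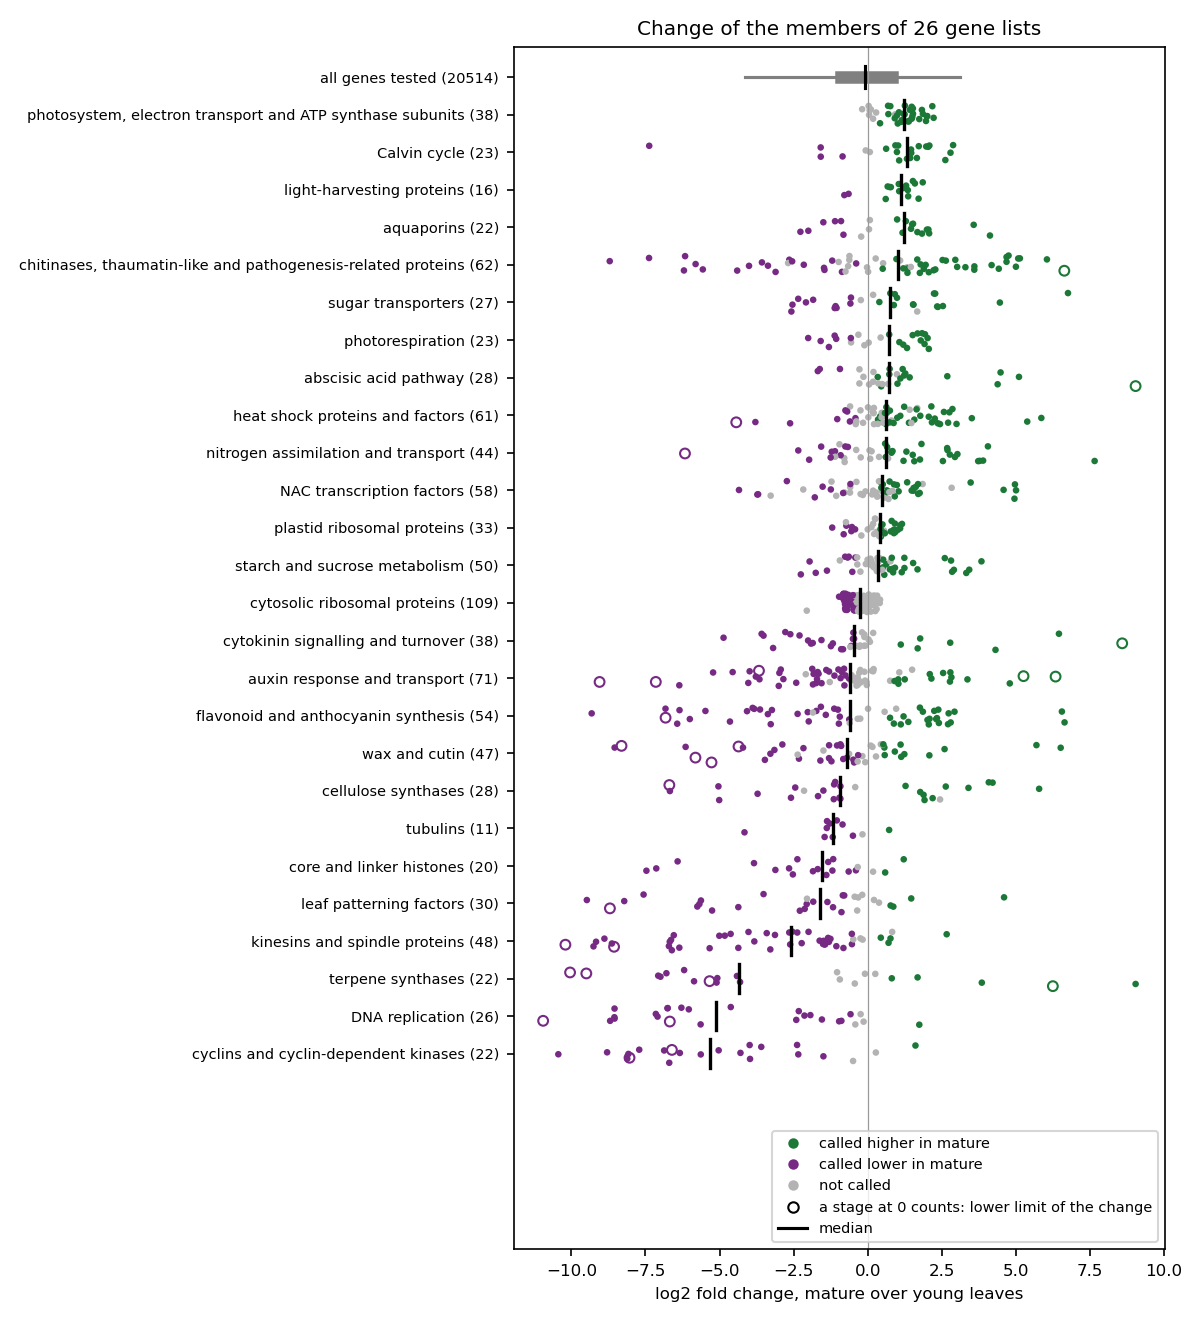
Log2 fold change, mature over young leaves (horizontal axis), of the tested members of 26 gene lists, 1 point a gene, coloured by call, open where a stage had no count and the change is a lower limit, with the list's median as a bar and, on top, the median, quartiles and 5 to 95% range of all 20514 genes tested. Cyclins, replication genes and terpene synthases have medians under −4, photosystem, Calvin cycle and antenna genes over 1, and members of wall, flavonoid and defence lists spread to both sides. With library totals the medians of plastid ribosomal proteins, starch and sucrose, and NAC factors turn negative.

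Carbohydrate genes changed in both directions. Starch and sucrose enzymes were called higher in 21 of 50 cases and lower in 9 (median 0.34, but −0.19 with library totals), with 5 lower without young library 2. These transcripts are long, 1.56 times the median length, and with the length trend taken out 33 were called higher and 6 lower (median 0.74). *Beta-amylase 1* (Eucgr.H02879), which cuts starch in the chloroplast, was at 409, 415 and 364 scaled FPKM in mature leaves, against 60.4, 67.9 and 68.4 in young leaves (2.60 ± 0.12, adjusted p = 1.4e-06). *Sucrose-phosphate synthase 1* (Eucgr.C01715), which makes sucrose for export, rose by 3.84 ± 0.20, at 4.67 ± 0.620 and 0.325 ± 0.0566 scaled FPKM, and *invertase B* (Eucgr.G01751), which splits sucrose for use, fell by 1.96, to 2.46 ± 0.194 against 9.68 ± 1.01. Of 27 sugar transporters 14 were called higher and 10 lower (median 0.76, or 0.24 with library totals, and below 0 with limma on FPKM). *Polyol transporter 5* (Eucgr.G00453) was the most abundant, at 185, 175 and 172 scaled FPKM, against 34.8, 33.9 and 36.6 (2.35 ± 0.10). The sucrose carrier *SUC6* (Eucgr.F04144) averaged 6.44 ± 0.580 and 0.289 ± 0.0296 scaled FPKM, and *polyol transporter 4* (Eucgr.K00966) 2.14 ± 0.536 and 12.9 ± 1.57, in mature and young leaves.

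Nitrogen genes were higher in sum in mature leaves. Of 44 genes of nitrogen assimilation and transport 23 were called higher and 10 lower (median 0.63), against 17 and 16 with library totals (median 0.11). They summed to 3002, 2960 and 2609 scaled FPKM in mature leaves, against 822, 887 and 904 in young leaves, 3.28 times as much. *Glutamine synthetase* (Eucgr.F02872), which fixes ammonium and is annotated after the nodule form of legumes, was at 1349, 1352 and 1168 scaled FPKM, against 189, 202 and 178 (2.77 ± 0.12, adjusted p = 1.5e-06). A *vacuolar amino acid transporter 1* (Eucgr.H00460) rose by 7.66 ± 0.22, at 20, 17.9 and 19.9 against 0.126, 0.0684 and 0.0842, and *amino acid permease 7* (Eucgr.F02004) fell by 2.34, to 3.11 ± 0.806 against 15.9 ± 0.338. Phosphate genes were called higher in 22 of 46 cases and lower in 11 (median 0.42, or −0.11 with library totals), with 7 lower without mature library 1. *Phosphate transporter 1-3* (Eucgr.H03069) was at 240, 235 and 207 scaled FPKM, against 15.7, 81.9 and 93.5, with young library 1 far below the others (1.85 ± 0.55, adjusted p = 0.02, but 0.052 without mature library 1 and 0.075 with library totals). *PHO1 homolog 1* (Eucgr.B03070), which loads phosphate into the xylem, averaged 8.61 ± 1.49 and 0.0830 ± 0.0406 scaled FPKM in mature and young leaves.

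The protease that marks senescence in Arabidopsis was already abundant in these mature leaves. *SAG12* (Eucgr.D00494, chromosome 4, 9125203 to 9126840), a vacuolar cysteine protease, was at 1702, 1581 and 1534 scaled FPKM in mature leaves, against 3.97, 1.70 and 6.65 in young leaves (8.62 ± 0.55, adjusted p = 6.7e-06). In mature leaves it held more than all other members together of the summed level of the senescence and autophagy list. That sum was 3167, 2996 and 2970 scaled FPKM in mature leaves, against 692, 614 and 576 in young leaves. Of the 37 genes of that list 18 were called higher and 7 lower, with a median of 0.45 that became −0.07 with library totals. *ATG13* (Eucgr.F02525), which starts autophagy, fell by 4.96, to 0.314 ± 0.174 against 10.2 ± 1.89 scaled FPKM. *NAC083* (Eucgr.B03537), a NAC factor of vessels and leaf ageing in Arabidopsis, was at 76.3, 74.6 and 74.9 scaled FPKM in mature leaves, against 27.1, 21.2 and 21.4 in young leaves (1.71 ± 0.13), while a second gene of that name (Eucgr.K02205) fell by 3.72, to 0.0846, 1.10 and 0.978 against 11.1, 9.14 and 9.06. Of 58 NAC factors 24 were called higher and 9 lower (median 0.47, or −0.06 with library totals). The largest rise was that of *NAC066* (Eucgr.D01671), a secondary wall factor, at 3.31 ± 0.430 and 0.0976 ± 0.0839 scaled FPKM.

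Auxin and cytokinin genes were more often called lower than higher. Of 71 auxin genes 14 were called higher and 33 lower (median −0.59), and of 38 cytokinin genes 7 and 19 (median −0.47). Single auxin exporters changed in opposite directions. *PIN6* (Eucgr.F04265) had no count in mature leaves and 4.75, 5.31 and 5.27 scaled FPKM in young leaves, at least 530-fold lower in mature leaves, and *PIN5* (Eucgr.B01405), which works at the endoplasmic reticulum, rose by 4.80 ± 0.21, at 29.8, 31.5 and 25.9 against 0.977, 0.833 and 1.33. *IAA16* (Eucgr.H04335), an auxin repressor, was the most abundant of the list, at 211 ± 1.97 and 229 ± 1.67 scaled FPKM, and was not called. In cytokinin signalling, *phosphotransfer protein 1* (Eucgr.H04435) fell by 3.52, to 11, 9.77 and 20.8 scaled FPKM against 201, 154 and 123, while *isopentenyltransferase 5* (Eucgr.B01146), which starts cytokinin synthesis, was at 2.96, 3.23 and 3.71 scaled FPKM in mature leaves and without a count in young leaves, at least 386-fold higher. *LOG1* (Eucgr.J00920), the activating enzyme, was at 118 ± 3.61 and 130 ± 23.2 scaled FPKM and was not called (−0.13, or −0.46 and called lower with the length trend taken out). Of 23 gibberellin genes 11 were called higher and 6 lower (median 0.15, −0.37 with library totals). *Gibberellin-regulated protein 1* (Eucgr.B03366) was at 3.24, 3.94 and 4.58 scaled FPKM, against 456, 310 and 260 (−6.43 ± 0.28, adjusted p = 1.4e-06), and *gibberellin 2-beta-dioxygenase 2* (Eucgr.K03561), which inactivates the hormone, rose by 5.56 ± 1.11 at a mean of 2.04 ± 0.719 against 0.0422 ± 0.0731.

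Abscisic acid, ethylene and jasmonate genes followed. Abscisic acid genes were called higher in 15 of 28 cases and lower in 3 (median 0.71), against 11 and 7 with library totals (median 0.18). *ABA 8'-hydroxylase 4* (Eucgr.G01437), which breaks the hormone down, was at 5.44, 3.63 and 4.69 scaled FPKM in mature leaves and without a count in young leaves, at least 528-fold higher, and *abscisic-aldehyde oxidase* (Eucgr.J00610), its last synthetic step, fell by 1.62, to 2.12 ± 0.440 against 6.56 ± 2.20. *Abscisic stress-ripening protein 1* (Eucgr.D00723), the most abundant of the list, was at 376 ± 46.6 and 459 ± 26.1 scaled FPKM and was not called (−0.28, or −0.70 and called lower with the length trend taken out). Genes described by name as of ethylene synthesis or response were called higher in 33 of 69 cases and lower in 15 (median 0.38, −0.14 with library totals). The response factor *RAP2-4* (Eucgr.F02440) was at 825, 821 and 968 scaled FPKM, against 409, 318 and 265 (1.41 ± 0.18), *RAP2-1* (Eucgr.F00192) averaged 127 ± 14.1 and 8.70 ± 1.81, and *WRI1* (Eucgr.G02636), which turns on fatty acid synthesis, had no count in mature leaves and a mean of 2.80 in young leaves, at least 136-fold lower. Of 30 jasmonate genes 5 were called higher and 14 lower (median −0.47). The repressor *TIFY 6B* (Eucgr.G02116) averaged 102 ± 11.1 and 252 ± 29.4 scaled FPKM in mature and young leaves (−1.3 ± 0.14), *OPR3-like* (Eucgr.L03110) 0.314 ± 0.0306 and 2.56 ± 0.107, and *lipoxygenase 2-1* (Eucgr.J00821) 4.64 ± 0.907 and 0.0540 ± 0.0936.

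Factors that shape the leaf were lower in the mature one. Of 30 patterning genes 19 were called lower and 4 higher (median −1.60), and they summed to 419, 426 and 427 scaled FPKM in mature leaves, against 1120, 1117 and 1098 in young leaves. *YABBY 1* (Eucgr.D02474), which sets the lower leaf face, was at 21.4, 17.1 and 17 scaled FPKM, against 225, 227 and 187 (−3.51 ± 0.15, adjusted p = 1.2e-06). *LOB6* (Eucgr.C02148), a factor of leaf polarity in Arabidopsis, had no count in mature leaves and 10.8, 9.84 and 12 scaled FPKM in young leaves, at least 416-fold lower. A *GRF1-interacting factor 1* (Eucgr.H04262) ran against the list at a low level, with 5.45 ± 1.06 and 0.219 ± 0.0544 scaled FPKM (4.60 ± 0.32), while its namesake Eucgr.B02127, chosen after its values were seen, averaged 0.678 and 37.1. *Growth-regulating factor 6* (Eucgr.F00097), which keeps young leaf cells dividing, and *AINTEGUMENTA* (Eucgr.H02335), which sets organ size, were also chosen after their values were seen, with 0.143 and 0.102 scaled FPKM in mature leaves and 44.7 and 19.7 in young leaves.

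Clock and WRKY genes were mixed. Of 41 genes of the clock and of light signalling 16 were called higher and 10 lower (median 0.20, −0.32 with library totals). With the length trend taken out 21 were called higher and 11 lower (median 0.52). *CONSTANS-LIKE 4* (Eucgr.C01876) was the most abundant, at 603, 586 and 603 scaled FPKM, against 447, 394 and 365 (0.58 ± 0.12), a call lost with library totals and with limma on FPKM. *EARLY FLOWERING 4* (Eucgr.J00211), of the evening complex, was at 34.5, 36.3 and 42.1 scaled FPKM in mature leaves, against 4.48, 3.91 and 2.45 in young leaves, and the MYB factor *REVEILLE 5* (Eucgr.D00726) at 0.323, 0.162 and 0.357, against 26.4, 23.4 and 20.5. The hour of sampling is not stated for either stage, so stage and time of day cannot be told apart in clock genes. Of 46 WRKY factors 13 were called higher and 12 lower, beside 29.0% and 32.5% over all genes tested. Their median was 0.05, with its sign changed by library totals, by a fit over all libraries and without mature library 1. *WRKY51* (Eucgr.C00077) was at 47.3 ± 1.67 and 81.6 ± 6.05 scaled FPKM in mature and young leaves (−0.78 ± 0.10), *WRKY31* (Eucgr.K00786) at 5.48 ± 1.08 and 0.365 ± 0.109, and *WRKY9* (Eucgr.G00619) at 2.35 ± 0.288 and 24 ± 6.26.

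Heat shock proteins and proteins named after defence families were more often called higher than lower. Heat shock proteins and factors were called higher in 31 of 61 cases and lower in 8 (median 0.63), against 18 and 11 with library totals (median 0.10). Only 5 were called lower without young library 2, without mature library 3 or with the length trend taken out. An *18.1 kDa class I small heat shock protein* (Eucgr.K03016) was at 200, 217 and 254 scaled FPKM, against 6.05, 2.87 and 2.67 (5.86 ± 0.35, adjusted p = 5.3e-06), and the factor *HSFB4* (Eucgr.F02327) averaged 2.05 ± 0.357 and 28.7 ± 1.23. The constitutive *HSC80* (Eucgr.F03673) was called lower by a small margin (−0.41 ± 0.13, adjusted p = 0.021), a call lost when any library other than young library 1 was left out and with the length trend taken out (−0.16, adjusted p = 0.10). Chitinases, thaumatin-like and pathogenesis-related proteins gave 30 higher and 19 lower of 62, with a median of 1.03 (0.72 with the length trend taken out). Yet they summed to less, 0.809 times as much as in young leaves. The most abundant member, *chitinase-like protein 2* (Eucgr.H04034), is in the list by its name, and whether it serves defence was not tested. It was at 700, 764 and 728 scaled FPKM in mature leaves, against 35.8, 31.2 and 18.7 in young leaves (4.69 ± 0.26). A *thaumatin-like protein* (Eucgr.D01904) was at 1.3, 1.36 and 1.11 scaled FPKM, against 589, 538 and 477 (−8.71 ± 0.17, adjusted p = 3.0e-07). A *basic endochitinase* (Eucgr.L00938) rose by 5.14 ± 1.14 at a low level, 3.78 ± 0.627 against 0.104 ± 0.180 scaled FPKM. Of 100 genes that scavenge reactive oxygen or conjugate glutathione 37 were called higher and 33 lower, beside 29.0% and 32.5% over all genes tested. Their median was 0.12, but −0.40 with library totals and −0.10 with the length trend taken out. *Peroxidase 27* (Eucgr.C02747) rose by 7.91 ± 0.20, at 50.0 ± 6.97 and 0.202 ± 0.0384 scaled FPKM, and the abundant copper-zinc *superoxide dismutase* (Eucgr.B01760), at 609, 585 and 709 against 985, 805 and 626, overlapped between stages and was not called (−0.33, or −0.69 and called lower with the length trend taken out).

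Water channels changed in both directions with a like sum. Of 22 aquaporins 13 were called higher and 6 lower (median 1.23), while the summed level was 2454 ± 48.9 scaled FPKM in mature leaves and 2464 ± 161 in young leaves (SD, n = 3 each). *PIP1-2* (Eucgr.G03037), of the plasma membrane, was at 1130, 1072 and 917 scaled FPKM, against 319, 285 and 277 (1.83 ± 0.13, adjusted p = 1.0e-05). *TIP1-1* (Eucgr.K02438), of the vacuole membrane of expanding cells, was at 125, 120 and 141, against 681, 612 and 583 (−2.27 ± 0.12, adjusted p = 3.4e-06). *NIP1-1* (Eucgr.E02836) averaged 18.6 ± 1.08 and 1.07 ± 0.374 scaled FPKM. Dehydration-protective proteins were called higher in 6 of 13 cases and lower in 2. Among them the desiccation-related *PCC13-62* (Eucgr.H01164) averaged 14.8 ± 0.728 and 0.0593 ± 0.103 scaled FPKM in mature and young leaves, and *LEA2* (Eucgr.F02549) had no count in mature leaves and a mean of 3.59 in young leaves, at least 123-fold lower. The abundant dehydrin *Rab18* (Eucgr.I02395), at 72.1 ± 3.15 and 75.8 ± 1.04 scaled FPKM, was not called (−0.06, or −0.38 and called lower with the length trend taken out).

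Markers of the cell types that a leaf can hold were measured as lists. Summed meristem markers, matched by name, were 58.8 to 69.2 scaled FPKM in mature leaves, against 56.9 to 74.7 in young leaves, so the groups overlapped. Of 11 tested, 3 were called higher and 5 lower, with a median log2 fold change of −0.84. *CLE46* (Eucgr.B02381) fell, with 0, 0 and 1.88 scaled FPKM against 18.6, 13.6 and 9.81 (−4.47 ± 1.19, adjusted p = 0.012), a call lost with DESeq2. *CLAVATA1* (Eucgr.H00963) rose, at 21.4, 22.2 and 21.1 scaled FPKM against 0.995, 1.19 and 1.41. It is a large part of the mature sums, so their overlap with the young sums does not mean that the members were level. *WOX8* (Eucgr.I02222) was at 11.6 ± 0.936 and 21.0 ± 1.07 scaled FPKM in mature and young leaves. Summed markers of the stomatal lineage were 37.6 to 51.6 scaled FPKM in mature leaves, against 68.4 to 89.1 in young leaves, with 1 of 7 called higher and 4 lower. *EPF1* (Eucgr.B04022), a spacing signal of early stomatal cells, fell to 0, 0 and 0.0870 scaled FPKM against 2.79, 2.36 and 2.20, whereas *FAMA* (Eucgr.H02788), the factor that turns a precursor into guard cells, rose to 40.7, 39.3 and 26.4 against 9.16, 8.93 and 7.19 (2.08 ± 0.20).

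Vascular markers were higher in sum. Xylem and secondary wall markers summed to 163 to 175 scaled FPKM in mature leaves, against 68.4 to 94.6 in young leaves, with 9 of 18 called higher and 5 lower. Those called higher include *laccase-4* above and *CesA8* (Eucgr.D00476), chosen after its values were seen, at 71.0 and 3.84 scaled FPKM in mature and young leaves (4.22), and those called lower include 3 genes annotated as *CesA4*. Phloem markers summed to 1402 to 2038 scaled FPKM, against 105 to 122, of which *PHLOEM PROTEIN 2-LIKE A1* (Eucgr.J02719), a lectin of sieve elements, gave 1296, 1320 and 1927 scaled FPKM in mature leaves, against 40.8, 26 and 24.9 in young leaves (5.64 ± 0.29). Of 17 phloem markers 5 were called higher and 8 lower, and the 8 were all sieve element occlusion proteins, such as *SEO-B* (Eucgr.H00200) at 1.32, 0.469 and 0.831 scaled FPKM against 22.8, 23.1 and 33.5. The part of cell type shares in the other results was not tested.

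The annotation terms in the table cover more genes than the lists. Among 112 KEGG pathways with at least 20 tested genes, the highest medians were those of brassinosteroid biosynthesis (1.61, with 12 of 20 genes called higher), isoflavonoid biosynthesis (1.46) and photosynthesis (1.39, with 42 of 57). The lowest were those of anthocyanin biosynthesis (−1.36, with 20 of 38 genes called lower), fatty acid elongation (−1.05, with 24 of 37) and synthesis of the branched amino acids valine, leucine and isoleucine (−0.94, with 19 of 25). Fatty acid biosynthesis (31 of 49 called lower) and mismatch repair (30 of 52) were also among the 10 lowest. Among 619 gene ontology terms, the highest medians were those of secondary cell wall biogenesis (3.01, with 29 of 41 called higher), lysosome (1.91, with 30 of 41) and cysteine-type endopeptidase activity (1.87, with 36 of 53). Iron ion homeostasis (1.51) and plastoglobule, the lipid droplet of chloroplasts (1.21), were also among the 10 highest. The lowest were those of the kinesin complex and of microtubule-based movement (both −4.10, with 48 of 56 called lower), secondary metabolic process (−4.04, with 36 of 43) and regulation of cell cycle (−3.98, with 25 of 32). Every median given for a term kept its sign with library totals. Terms share genes and were ranked without a test.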

How the data were processed

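RNA sequencing of 3 mature and 3 young leaf libraries of diploid *E. urophylla* was analysed. The submitters' processing notes name HISAT2 2.0, StringTie 1.3.0 and Bowtie 0.12.2, without their roles. The labels name poly(A) selection and a mouse build, the paper a stranded total RNA kit and RPKM. The gene identifiers and positions are those of *E. grandis*. The authors deposited FPKM values per gene and read counts per gene. The counter and its treatment of strand and of multiply mapped reads are not given in the sources used here. FPKM values of 0.0001 or less were taken as 0. The table also holds 2 columns of counts that could not be tied to a library, which were not used.

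Groups came from the labels. The counts were fitted with edgeR 4.0.16 (R 4.3.3; filterByExpr, TMM, quasi-likelihood test, Benjamini-Hochberg adjustment over 20514 genes, call at adjusted p under 0.05), leaving 5519 genes untested. The SE is the absolute log2 fold change divided by the square root of F. Alternatives were size factors of the DESeq2 type, library totals, DESeq2 1.42.0, no filter on low counts, a fit over all libraries with counts (8 groups), limma 3.58.1 on log2(FPKM + 1) and with 0.1 restricted to genes averaging 0.5 FPKM or more, the replicate number as a block, leaving out libraries, and, added after seeing the data, lowess offsets for transcript length (length taken from counts over FPKM). The reported edgeR fit and that with length offsets were run on simulated data. There few genes changed, in both directions, and no length trend was put in, so faults of scaling or length could not show. Python 3.11.15 with pandas 2.3.3, numpy 2.4.6 and matplotlib 3.10.9 was used.

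The 49 lists (1913 genes, 25 in more than 1) were matched on gene descriptions, present for 13190 genes, with patterns adapted to their wording. The genes in the comparison and the lists were chosen with earlier results of these data known. Named genes are, in each list, the called gene with the largest rise, that with the largest fall and the most abundant, at 2 FPKM or more in a stage. Over all genes they are the 8 largest rises and falls with a description, at 10 FPKM or more and without overlap, and GLK1 and GLK2. A fold against a stage at 0 is a bound against 3 counts over that stage's libraries, and list medians were the same to 2 decimals with such genes at their bound. Bounds cover counting error only. Promoter and protein sequences were not analysed here.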

Additional observations from a re-analysis of the deposited data

How the results depend on the processing

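Of 151 named genes, 131 kept their direction and side of the threshold under every alternative run, and 143 in every fit that left out 1 library. The number of calls stayed within 1.5 times of 12623 except with a 2-fold limit added (8233 calls, 4191 of them lower). Library totals gave 3917 higher and 10399 lower, limma on log2(FPKM + 0.1) 3934 and 10487, and limma on log2(FPKM + 1) 10663 lower; both of these take no TMM factor. Leaving out 1 library gave 10781 to 13229 calls, and the fit with offsets for transcript length 6428 higher and 6936 lower, with 11714 of the 12623 calls kept. Whether the replicate numbers pair the stages is not stated. Same-numbered deviations correlated at −0.0591, 0.0402 and −0.138, and differently numbered ones at −0.117 to 0.164. Deviations of 3 libraries from their own mean cannot settle it. With the number as a block 5248 genes were called higher and 5631 lower, and the calls of SMR3 (Eucgr.G02732) and HSC80 (Eucgr.F03673) were among those lost. Named genes that changed direction had no call in the reported fit: Eucgr.E00121 (−0.25 with library totals and with both limma fits), Eucgr.H02008 (−0.45 with library totals, −0.45 and −0.46 with limma, −0.07 with length offsets), Eucgr.K01056, GLK2 (−0.39 with library totals, −0.39 and −0.40 with limma), and, when 1 library was left out, Eucgr.B03289 (−0.33 to 0.06) and Eucgr.J00920 (−0.24 to 0.04), both positive only without young library 1. The medians of 13 of 49 lists changed sign with library totals, and of 14 with limma, and with library totals the count of genes called higher or that called lower moved by over 1.5 times in 24 lists. The cause of these changes was not tested.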
